A study of Mus musculus with 12 samples.

Results

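The store-operated calcium entry genes described here encode the STIM sensors (*Stim1*, *Stim2*), the ORAI channel subunits (*Orai1*, *Orai2*, *Orai3*), the inositol trisphosphate (IP3) receptors (*Itpr1*, *Itpr2*, *Itpr3*) and the SERCA pumps (*Atp2a2*, *Atp2a3*). They were taken by gene symbol from the deposited count table, of whose 24561 genes they are 10, and all 10 passed the filter on low counts. RNA was measured in CXCR5hiPD-1hi T follicular helper (Tfh) cells, the T cells that help B cells in follicles, sorted from draining lymph nodes 3 days after subcutaneous NP-OVA immunization with LPS in alum. The sorted cells were OT-II cells, whose T cell receptor recognizes an ovalbumin peptide, transferred into CD45.1 *Sap*-/- recipients, and the labels give the strain as C57BL/6. Mice labelled WT received CD4-Cre cells, and mice labelled HET received CD4-CrexBcl6fl/+ cells, so the cells of both groups carried a Cre recombinase driven by the *Cd4* promoter, and those of the second also carried a floxed allele of *Bcl6*, the gene of the BCL6 repressor. There were 3 recipients per label, each with 2 technical repeats of about 200 cells, or 12 libraries. How many donor mice gave the transferred cells is not given in the sources used here. Where the study transferred splenocytes, 1 donor was typically split among 3 recipients, and if that held here, donor and genotype cannot be told apart.

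Calcium enters T cells mainly through the store-operated pathway. Signaling from the T cell receptor produces IP3, which opens IP3 receptors in the membrane of the endoplasmic reticulum (ER) and lets stored calcium out. STIM proteins sense the fall of calcium in the ER lumen and open ORAI channels in the plasma membrane, and SERCA pumps return calcium to the store. In Tfh cells this calcium activates the NFAT transcription factors, and loss of STIM proteins in T cells is known to impair Tfh differentiation.

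Promoter windows from RefSeq (build GRCm38.p6), each reaching from 250 bases before to 50 bases after the annotated transcription start, were found for 8 of the 10 genes, all but *Itpr1* and *Atp2a2*. They were searched on both strands for TTCCNNGAA, the core of the BCL6 motif, for GCGNGGGCG, that of the EGR factors induced by T cell receptor signaling, and for GGAAA, that of NFAT. The windows of *Orai1* and of the 4 genes that differed between the genotypes are printed 5′ to 3′, with the BCL6 or EGR core in capitals. They lie at chr7:102267569-102267868 (+ strand) for *Stim1*, chr5:123014824-123015123 (+ strand) for *Orai1*, chr5:136170607-136170906 (- strand) for *Orai2*, chr17:27057054-27057353 (+ strand) for *Itpr3* and chr11:72960919-72961218 (+ strand) for *Atp2a3*.
Stim1: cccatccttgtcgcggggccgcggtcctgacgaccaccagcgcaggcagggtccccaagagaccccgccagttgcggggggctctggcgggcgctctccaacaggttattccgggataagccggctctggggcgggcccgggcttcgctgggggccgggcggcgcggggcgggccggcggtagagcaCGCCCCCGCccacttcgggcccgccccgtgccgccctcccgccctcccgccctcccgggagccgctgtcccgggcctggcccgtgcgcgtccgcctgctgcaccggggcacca
Orai1: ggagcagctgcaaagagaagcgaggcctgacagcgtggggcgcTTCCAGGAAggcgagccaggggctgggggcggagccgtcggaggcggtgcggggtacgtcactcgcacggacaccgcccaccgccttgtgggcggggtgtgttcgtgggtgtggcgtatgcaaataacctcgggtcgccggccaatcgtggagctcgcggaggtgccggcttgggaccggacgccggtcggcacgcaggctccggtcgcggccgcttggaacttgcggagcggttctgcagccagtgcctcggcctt
Orai2: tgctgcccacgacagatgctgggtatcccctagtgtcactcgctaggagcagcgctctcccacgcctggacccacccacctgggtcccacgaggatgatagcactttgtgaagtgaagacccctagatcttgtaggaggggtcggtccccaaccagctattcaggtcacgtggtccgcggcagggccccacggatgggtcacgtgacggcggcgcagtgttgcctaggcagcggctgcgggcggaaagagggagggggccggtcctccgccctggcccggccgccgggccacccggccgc
Itpr3: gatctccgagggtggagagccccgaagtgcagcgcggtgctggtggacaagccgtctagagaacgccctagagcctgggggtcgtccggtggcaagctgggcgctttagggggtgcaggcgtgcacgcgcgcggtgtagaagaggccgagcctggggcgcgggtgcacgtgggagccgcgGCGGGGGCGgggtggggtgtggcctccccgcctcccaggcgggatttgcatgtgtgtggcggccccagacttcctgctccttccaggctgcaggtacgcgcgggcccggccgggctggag
Atp2a3: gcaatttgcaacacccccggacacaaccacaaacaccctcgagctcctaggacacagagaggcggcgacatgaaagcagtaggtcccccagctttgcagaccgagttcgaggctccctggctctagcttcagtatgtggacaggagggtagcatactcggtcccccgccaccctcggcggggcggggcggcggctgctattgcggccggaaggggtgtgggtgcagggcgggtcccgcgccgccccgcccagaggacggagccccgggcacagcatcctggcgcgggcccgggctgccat

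A BCL6 core was found in 1 of the 8 windows, that of *Orai1*, as TTCCAGGAA starting 207 bases before the transcription start, and in 4.81% of all 32851 windows (4.46% of those of tested genes). An EGR core was found in 3 of the 8 windows, those of *Stim1*, *Stim2* and *Itpr3*, against 5.55% of all windows and 10.2% of the 11194 windows of tested genes. In *Stim1* and *Itpr3* it began 63 and 70 bases before the start, read on the reverse strand in *Stim1*, and in *Stim2* at base 10 after it. The short NFAT core was present in 2 of the 8 windows, *Orai2* and *Orai3*, and in 61.3% of all windows (59.5% of those of tested genes). The windows of *Orai2*, *Itpr2*, *Orai3* and *Atp2a3* held neither of the 9-base cores. These matches describe the letters of the windows alone, since binding was not measured in these samples.

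Library totals ranged from 3343375 to 8315722 counts, and the reads carried no molecular identifiers. Counts of both repeats were added up for each recipient, and the genotypes were compared over these 6 mice by the edgeR quasi-likelihood test, with Benjamini-Hochberg adjustment over 12719 genes and a gene called where the adjusted p was under 0.05. The targeted gene went against the labels: *Bcl6* was at 146 to 150.0 CPM, read counts scaled to the size of the library, in the 3 mice labelled HET and at 54.8 to 75.6 CPM in the 3 labelled WT, a log2 fold change of 1.25 (adjusted p = 6.3e-07). The sources used here do not say whether the counted *Bcl6* reads can come from a deleted allele, so every direction below rests on the labels. Of 9 Tfh markers, all were tested, *Icos* and *Bcl6* were called higher and *Cd4*, *Cxcr5*, *Pdcd1* and *Tcf7* lower in the mice labelled HET, and their summed level was 3000.0 to 3348 CPM against 3254 to 3939 CPM. Of 10 B cell markers, 6 were tested and 0 called (summed level 472 to 781 CPM against 592 to 973 CPM, most of it *Ighm*). The highest library was labelled WT for *Ighm* (605 CPM in HET against 866 CPM in WT), *Cd22* and *Pax5*. For the other B cell markers it was labelled HET, as for *Cd74* (95.6 against 47.9 CPM) and *Igkc* (23.1 against 13.7 CPM). Of the 6 myeloid markers in the table, *Lyz2* was called higher, *Cd14* was at 0, and the summed level was 95.3 to 118 CPM against 74.3 to 97.4 CPM, most of it *Cst3*. Of 2 CD8 and NK markers tested, 0 were called (21.0 to 34.0 CPM against 24.1 to 48.8 CPM). Their part in the results below was not tested. In RNA of sorted cells, fewer cells that express a gene and less RNA per cell cannot be told apart. The p-values rest on the spread between these mice, which also holds the spread between libraries of the same mouse.

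Transcripts of the sensor *Stim1*, the channel subunit *Orai2* and the pump *Atp2a3* were lower in the mice labelled HET, and those of the IP3 receptor *Itpr3* were higher. Thus 4 of the 10 genes were called, 1 higher and 3 lower, against 18% of all tested genes, where 9.17% were higher and 8.82% lower. With upper-quartile scaling 1331 of all genes were higher and 957 lower, against 1166 and 1122 here, and 1 member was higher and 2 lower. All 10 members had at least 10 counts in every library. Among the 9261 genes that did, 2319 were called, and again 4 of the members. The median log2 fold change was -0.22 over the 10 genes and 0.01 over all tested genes, with 7 of the 10 below 0. In the same 4 genes the mice of the genotypes did not overlap, as in 34.4% of all tested genes. Without 2 libraries that stood apart from their genotype in a member gene, repeat 2 of HET mouse 3 and repeat 2 of WT mouse 3, only *Atp2a3* remained called. That count was also 1 with repeat 1 alone, 2 without HET mouse 3 or without WT mouse 1, and between 0 and 2 with TPM in place of counts.

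**Figure D1:**
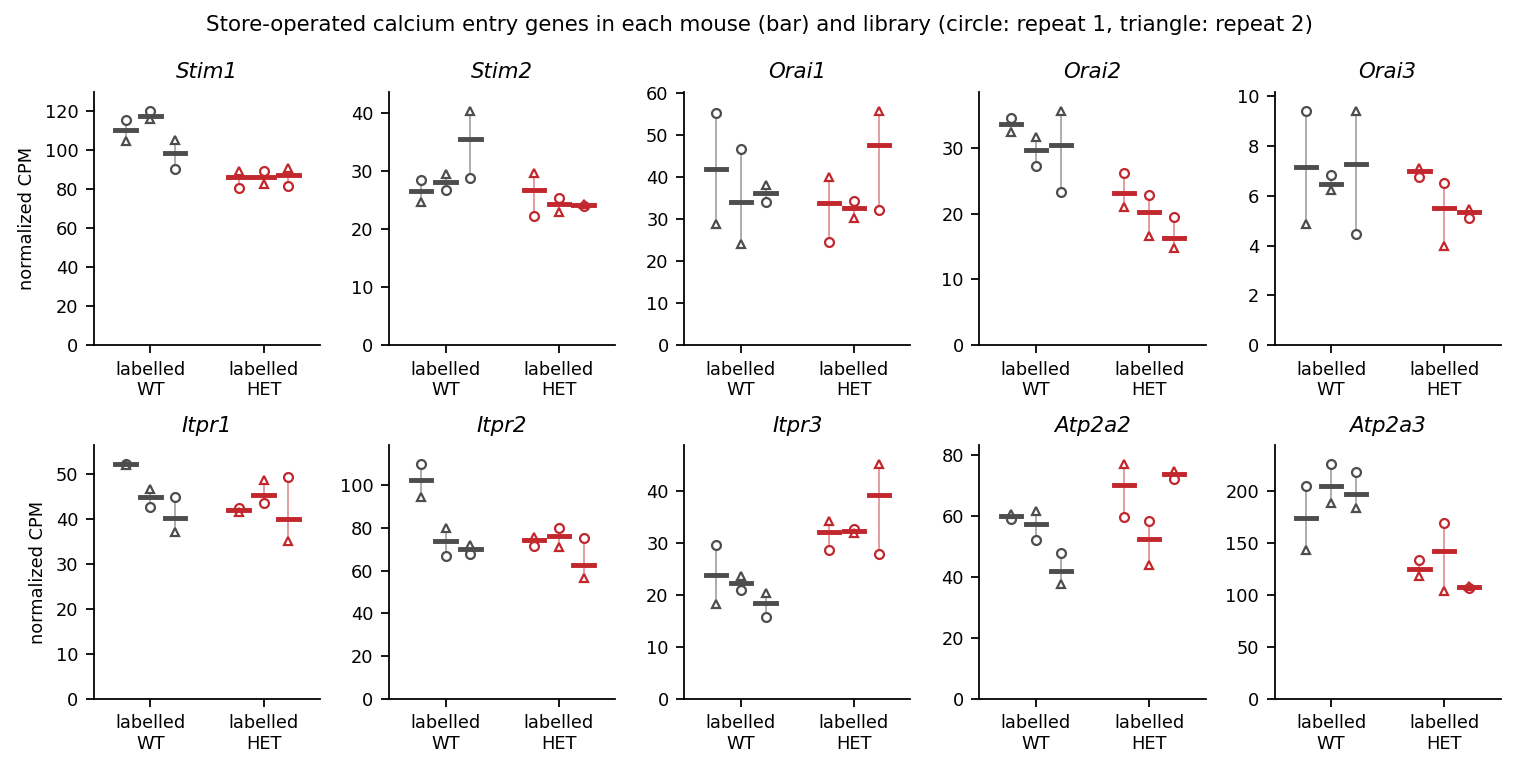
Normalized CPM (linear axes from 0) of the 10 genes, with a bar for each mouse, a circle for technical repeat 1 and a triangle for repeat 2, mice labelled WT in grey and HET in red. The bars of the genotypes do not overlap for *Stim1*, *Orai2*, *Itpr3* and *Atp2a3*, while the libraries of *Orai1* spread from 24.1 to 55.3 CPM in mice labelled WT and from 24.7 to 55.9 CPM in those labelled HET.

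*Stim1* encodes the main ER calcium sensor of T cells (chr7:102267806-102437319 on GRCm38, with 10371 exonic bases). It was at 86.1, 86.5 and 87.6 CPM in the 3 mice labelled HET and at 110.3, 118 and 98.9 CPM in the 3 labelled WT. All 3 values of the first group lay below all 3 of the second, and the former were within 2 CPM of each other. The means were 86.7 ± 0.767 and 109 ± 9.56 CPM (SD, n = 3 each), a log2 fold change of -0.33 (SE 0.11, 95% interval -0.55 to -0.10, edgeR adjusted p = 0.0372). By library, repeats 1 and 2 ranged from 80.4 to 91.0 CPM in the mice labelled HET and from 90.5 to 120.5 CPM in those labelled WT. The fold change stayed between -0.45 and -0.28 under the 22 alternatives, but the call was kept in 9 of them. It was lost with upper-quartile scaling (-0.30, edgeR adjusted p = 0.0614), with TPM in place of counts, with each repeat alone, with GC and length trends removed (-0.30, edgeR adjusted p = 0.0517), when any mouse other than WT mouse 3 was left out (edgeR adjusted p up to 0.152) and without the 2 libraries standing apart (-0.34, edgeR adjusted p = 0.113).

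*Stim2*, the sensor of higher sensitivity that responds to small losses of store calcium, was at 26.7, 24.3 and 24.2 CPM in the mice labelled HET and at 26.6, 28.2 and 35.4 CPM in those labelled WT. The groups overlapped, since HET mouse 1 lay just above WT mouse 1. Its log2 fold change of -0.26 did not pass the test (95% interval -0.61 to 0.09, edgeR adjusted p = 0.314), and without WT mouse 3 it was -0.13. The levels of both sensors were scaled per kilobase of exon, so that genes can be compared, and summed. The sum was 13.3 ± 0.231 in mice labelled HET and 16.4 ± 0.524 in mice labelled WT (CPM per kilobase, SD, n = 3). It did not overlap between the genotypes, like the CPM of 34.4% of all tested genes. *Stim1* made up 63.2% ± 1.48 of that sum in mice labelled HET and 64.2% ± 5.40 in those labelled WT (two-sided exact permutation test, p = 0.8, where 3 mice against 3 cannot go below 0.1). That difference of -1.08 percentage points depended on single mice. It turned to 0.44 points without WT mouse 1 and to 0.51 points without WT mouse 2. Without WT mouse 3, in which *Stim2* was highest, it was -4.20 points and the shares of the remaining mice did not overlap (61.5% to 64.2% in mice labelled HET, 67.3% and 67.4% in those labelled WT). The sum and the share also depended on the length used. Per kilobase of exon, *Stim1* and *Stim2* had means of 9.44 and 5.37 CPM over all mice. Per kilobase of the longest coding transcript the means were 22.4 and 5.59, and the difference in share was -0.66 points.

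*Orai2* encodes a subunit that joins ORAI1 in the channel and is known to lower its current. It was at 23.2, 20.3 and 16.4 CPM in the mice labelled HET and at 33.6, 29.7 and 30.4 CPM in those labelled WT. Every mouse of the first group lay below every mouse of the second. The means were 19.95 ± 3.45 and 31.2 ± 2.09 CPM (SD, n = 3), a log2 fold change of -0.64 (SE 0.18, 95% interval -1.01 to -0.27, edgeR adjusted p = 0.0139). In repeat 2 the 3 libraries labelled HET had 14.7 to 21.0 CPM and those labelled WT 31.7 to 35.7 CPM. In repeat 1 the ranges, 19.5 to 26.3 and 23.3 to 34.6 CPM, overlapped. With repeat 1 alone the log2 fold change was -0.30 (edgeR adjusted p = 0.517), and with repeat 2 alone it was -0.93 (edgeR adjusted p = 0.00869). The call was also lost without HET mouse 3 (-0.52, edgeR adjusted p = 0.0581), without WT mouse 1 (-0.60, edgeR adjusted p = 0.0566) and without the 2 libraries standing apart (-0.47, edgeR adjusted p = 0.166). With log2(TPM + 1) in place of counts it was lost too (-0.60, limma adjusted p = 0.0518, or 0.104 over all genes).

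*Orai1*, the pore subunit on which store-operated entry in T cells depends, was at 33.9, 32.6 and 47.7 CPM in the mice labelled HET and at 42.0, 34.1 and 36.3 CPM in those labelled WT. The groups overlapped and their means, 38.1 ± 8.38 and 37.5 ± 4.09 CPM, were close (log2 fold change 0.02, 95% interval -0.32 to 0.36, edgeR adjusted p = 0.954). This direction turned under 9 of the 22 alternatives, and 7 exonic bases are shared with the antisense gene *Gm2479*. *Orai3*, the third subunit, was at 6.99, 5.51 and 5.35 CPM in mice labelled HET and at 7.14, 6.49 and 7.28 CPM in those labelled WT. Those ranges overlapped too, and with 17 to 72 counts per library the interval was wide (log2 fold change -0.23, 95% interval -0.85 to 0.40, edgeR adjusted p = 0.666). Its value was -0.36 without HET mouse 1 and -0.04 without the 2 libraries standing apart. The summed ORAI level was 22.6 ± 3.01 CPM per kilobase in mice labelled HET and 24.7 ± 2.24 in those labelled WT, with overlap.

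*Itpr3* encodes the IP3 receptor of the lowest affinity for IP3 (chr17:27057304-27122223 on GRCm38). It was at 32.1, 32.4 and 39.3 CPM in the mice labelled HET and at 23.9, 22.4 and 18.4 CPM in those labelled WT. All mice labelled HET lay above all mice labelled WT, the highest being HET mouse 3. The means were 34.6 ± 4.07 and 21.6 ± 2.85 CPM (SD, n = 3), a log2 fold change of 0.68 (SE 0.17, 95% interval 0.33 to 1.04, edgeR adjusted p = 0.00742). By library, repeat 1 of the mice labelled HET was at 28.0 to 32.8 CPM and repeat 2 at 32.0 to 45.3 CPM, against 15.9 to 29.6 and 18.3 to 23.7 CPM in those labelled WT. The call was lost with repeat 1 alone (0.44, edgeR adjusted p = 0.32), without WT mouse 3 (0.57, edgeR adjusted p = 0.052), without the 2 libraries standing apart (0.56, edgeR adjusted p = 0.0892) and with TPM in place of counts (0.36 with log2(TPM + 1), 0.50 with log2(TPM + 0.1)). It shares 234 exonic bases with *Itpr3os* on the other strand and with *Mir7677*, and the strand setting of the counting is not given in the sources used here, so reads within those bases, out of 9019 exonic bases, cannot be told apart.

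Neither of the other IP3 receptors was called. *Itpr2* was at 74.2, 76.3 and 62.8 CPM in the mice labelled HET and at 102.5, 74.0 and 70.1 CPM in those labelled WT (log2 fold change -0.21, 95% interval -0.49 to 0.08, edgeR adjusted p = 0.331). *Itpr1* was at 41.9, 45.3 and 39.9 CPM in mice labelled HET and at 52.1, 44.8 and 40.3 CPM in those labelled WT (log2 fold change -0.11, 95% interval -0.40 to 0.18, edgeR adjusted p = 0.653). Both genes overlapped between the genotypes, with WT mouse 1 the highest of the 6 mice in each. Without that mouse the log2 fold change was -0.03 for *Itpr2* and -0.01 for *Itpr1*, and without WT mouse 3 it was -0.32 and -0.20. *Itpr1* shares 289 exonic bases with *Gm44101* and *Gm44040*, both on the other strand. The level summed over the 3 receptors was 10.95 ± 0.235 CPM per kilobase in mice labelled HET and 10.4 ± 1.78 in those labelled WT, with overlap.

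*Atp2a3* encodes SERCA3, a pump of blood cells among other tissues (chr11:72961169-72993044 on GRCm38). It was at 124, 142.5 and 108 CPM in the mice labelled HET and at 174, 205 and 197 CPM in those labelled WT. Every mouse labelled HET lay below every mouse labelled WT. The means were 125 ± 17.5 and 192 ± 15.9 CPM (SD, n = 3), a log2 fold change of -0.62 (SE 0.11, 95% interval -0.85 to -0.39, edgeR adjusted p = 0.000451). Repeat 1 alone gave -0.66 (edgeR adjusted p = 0.00472) and repeat 2 alone -0.65 (edgeR adjusted p = 0.00131). The call held without each mouse in turn, between -0.73 and -0.53, and without the 2 libraries standing apart (-0.67, edgeR adjusted p = 0.00229). It was lost under 1 of the 22 alternatives, log2(TPM + 1) over all genes (-0.73, limma adjusted p = 0.0591). The log2 fold change was smallest in size with GC and length trends removed (-0.47, edgeR adjusted p = 0.00446).

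*Atp2a2*, the SERCA2 pump found in nearly all cells, was at 70.0, 52.4 and 73.8 CPM in the mice labelled HET and at 59.98, 57.3 and 41.8 CPM in those labelled WT. HET mouse 2 lay within the range of the mice labelled WT, and the log2 fold change of 0.30 did not pass the test (95% interval -0.01 to 0.62, edgeR adjusted p = 0.175). It was 0.15 without WT mouse 3 and 0.13 with log2(TPM + 1), but 0.44 without HET mouse 2 (edgeR adjusted p = 0.0674). It shares 83 exonic bases with *Gm43361* on the other strand. The summed SERCA level was 34.4 ± 1.65 CPM per kilobase in mice labelled HET and 45.1 ± 2.77 in those labelled WT (SD, n = 3), with no overlap. The CPM of 34.4% of all tested genes did not overlap either. The pumps went opposite ways within that sum: *Atp2a3* had means of 23.6 against 36.4 CPM per kilobase, and *Atp2a2* of 10.8 against 8.72.

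**Figure D2:**
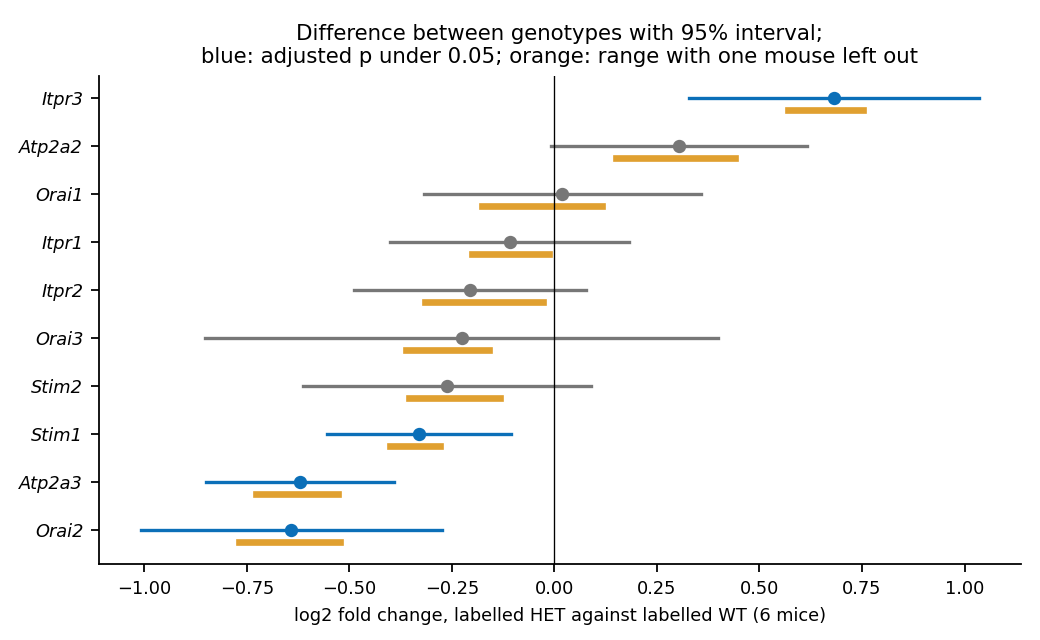
Log2 fold change (labelled HET against labelled WT, 6 mice) of each gene as a point with its 95% interval, blue where the adjusted p was under 0.05, and the range of the value with each mouse left out in orange. The intervals of *Itpr3* (0.33 to 1.04), *Stim1*, *Orai2* and *Atp2a3* lie off 0, and the orange range of *Orai1* spans 0.

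The make-up of each family was then compared, as the share of each member in its family's summed CPM per kilobase of exon, which does not depend on how the libraries are scaled. *Itpr3* made up 32.8%, 32.0% and 40.4% of the IP3 receptor level in the mice labelled HET and 21.3%, 25.01% and 22.7% in those labelled WT, a difference of 12.03 percentage points. The share of *Itpr2* was lower in each mouse labelled HET (39.4% to 46.2%) than in any labelled WT (50.4% to 55.8%), and that of *Itpr1* likewise (20.2% to 22.0% against 22.9% to 24.6%). The shares of a family sum to 100%, so these lower shares are not separate from the higher share of *Itpr3*, and the CPM of *Itpr1* and *Itpr2* overlapped between the genotypes. With repeat 1 alone the differences were smaller, 7.26 points for *Itpr3* and -5.13 points for *Itpr2*, and with the deposited TPM that of *Itpr1* moved from -2.91 to -4.81 points. In the SERCA family, *Atp2a2* took 32.8%, 24.2% and 37.3% in mice labelled HET and 23.0%, 19.6% and 15.6% in those labelled WT, and *Atp2a3* the rest. These mice did not overlap either, although HET mouse 2 and WT mouse 1 were close.

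In the ORAI family, *Orai2* took 17.5%, 16.6% and 10.4% in mice labelled HET and 20.4%, 21.4% and 20.7% in those labelled WT. *Orai1* took 67.5%, 70.6% and 80.0% against 67.4%, 65.3% and 65.3%, so that HET mouse 1 and WT mouse 1 differed by less than 1 percentage point. The share of *Orai3* overlapped between the genotypes (12.5% ± 2.68 against 13.2% ± 0.893). Of the 8 shares tested, which are tied within families, 6 did not overlap between genotypes (the CPM of 34.4% of all tested genes did not overlap), each with a two-sided exact permutation p = 0.1, the smallest that 3 mice against 3 allow, and an adjusted p of 0.133 over the 8. With repeat 1 alone 3 did not overlap. The differences of *Orai1* and *Orai2* then turned to -5.11 and 2.05 percentage points, against 16.2 and -12.8 with repeat 2 alone.

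**Figure D3:**
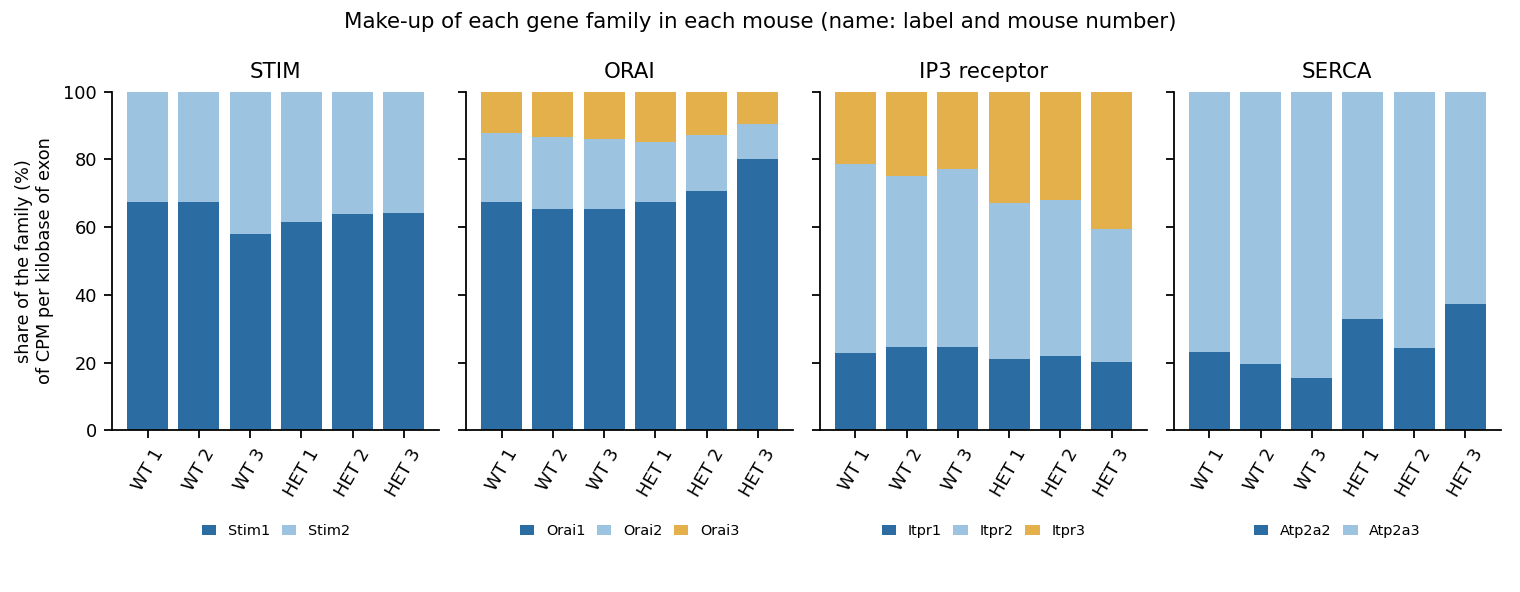
Stacked bars of each member's share (%) of its family's CPM per kilobase of exon, 1 bar per mouse, named by label and mouse number. The upper segment of the IP3 receptor bars (*Itpr3*) is taller in the mice labelled HET (32.0% to 40.4%) than in those labelled WT (21.3% to 25.01%).

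Compared per kilobase of exon over all 6 mice, *Atp2a3* had the highest level (mean 30.01 CPM per kilobase), followed by *Orai1* (16.5), *Atp2a2* (9.74), *Stim1* (9.44), *Stim2* (5.37), *Itpr2* (5.18), *Orai2* (4.21), *Itpr3* (3.11), *Orai3* (3.02) and *Itpr1* (2.40). Neighbours in that order overlapped in their range over the mice, except *Orai1* with *Atp2a2* and *Stim1* with *Stim2*. The order differed between the genotypes. *Itpr3* had the lowest mean of the 10 in mice labelled WT (2.39 CPM per kilobase) but lay above *Orai2*, *Orai3* and *Itpr1* in mice labelled HET (3.83), and *Stim1* lay above *Atp2a2* in mice labelled WT (10.5 and 8.72) and below it in mice labelled HET (8.36 and 10.8). It also depended on the length used, because *Stim1* has 10371 exonic bases but 4362 in its longest coding transcript. With the length of the longest coding transcript *Stim1* moved to rank 2 (22.4 CPM per kilobase), behind *Atp2a3* (34.4) and ahead of *Orai1* (20.1), and *Itpr1* moved from rank 10 to rank 8.

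Each technical repeat was also examined by itself, and the labels do not say what the repeat numbers share. *Orai1* differed most between the repeats of a mouse, with a median absolute log2 difference of 0.75. In the mice labelled WT its repeats 1 and 2 were at 55.3 and 28.9 CPM (mouse 1), 46.8 and 24.1 CPM (mouse 2) and 34.0 and 38.1 CPM (mouse 3). In the mice labelled HET they were at 24.7 and 40.04 CPM (mouse 1), 34.4 and 30.2 CPM (mouse 2) and 32.2 and 55.9 CPM (mouse 3). Thus repeat 2 was lower in 2 of the 3 mice labelled WT and higher in 2 of the 3 labelled HET. The log2 fold change between genotypes was -0.57 in repeat 1 and 0.46 in repeat 2, neither called (edgeR adjusted p = 0.102 and 0.195).

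Whether the repeat difference itself differed between genotypes was tested by edgeR in the 12 libraries, with the mouse as a block. The term was 1.01 for *Orai1* on the log2 scale (95% interval 0.36 to 1.66, edgeR adjusted p = 0.32) and -0.64 for *Orai2* (95% interval -1.32 to 0.05, edgeR adjusted p = 0.654). Of the 10 genes, 0 were called by edgeR and 0 by DESeq2, and 1 gene, *Orai1*, had an unadjusted p under 0.05 with each tool, against 0.115% called of 11259 genes tested and 922 with an unadjusted p under 0.05. *Orai2* had log2 differences of repeat 2 from repeat 1 of -0.32, -0.45 and -0.41 in the mice labelled HET and of -0.09, 0.21 and 0.61 in those labelled WT. *Atp2a3* was lower in repeat 2 in 5 of the 6 mice, with fitted differences of -0.29 and -0.34 in the genotypes. *Stim1* differed least together with *Itpr1*, with median absolute differences of 0.15 each.

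**Figure D4:**
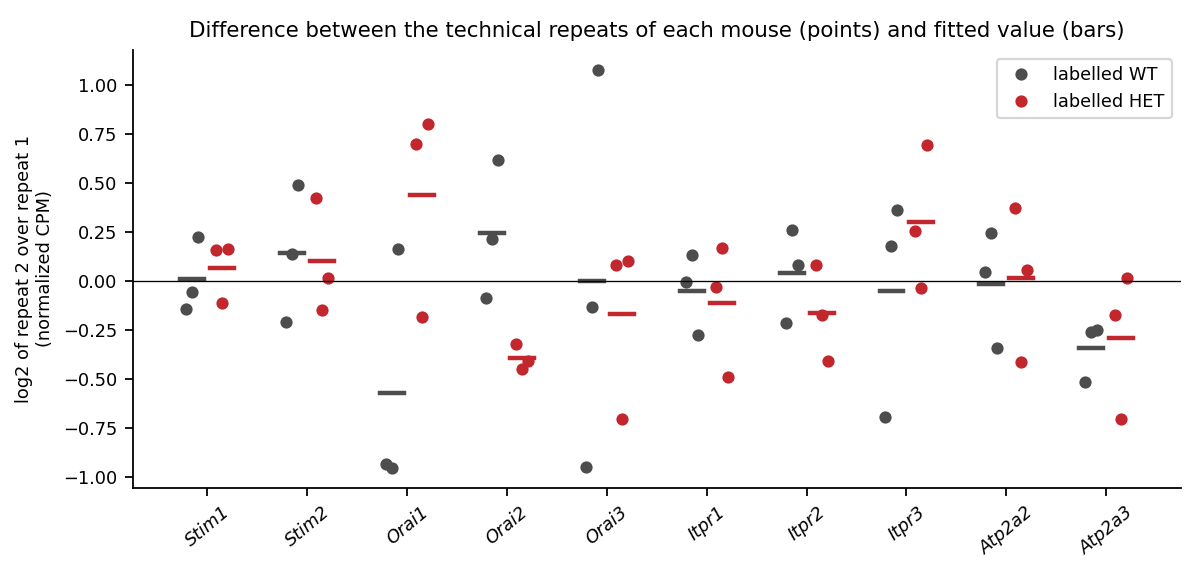
Log2 ratio of repeat 2 to repeat 1 in each mouse (points) and the fitted difference in each genotype (bars) for the 10 genes, mice labelled WT in grey and HET in red. For *Orai1* the fitted values are -0.57 in the mice labelled WT and 0.44 in those labelled HET.

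Other genes of the pathway were taken from a fixed list, of which 72 were in the count table and 57 were tested. Of these, 8 were higher and 6 lower in the mice labelled HET (24.6%, against the 18% of all tested genes), with a median log2 fold change of -0.08. Of 5 STIM and ORAI regulators, *Saraf*, which restrains store-operated entry, was lower (-0.52, 122.9 ± 11.2 against 176 ± 34.1 CPM) and none was higher. Of 7 genes of IP3 production and removal, *Plcg1*, the phospholipase that makes IP3 below the T cell receptor, was lower (-0.58, 88.6 ± 13.9 against 132 ± 9.44 CPM). *Itpkc*, an IP3 kinase, was higher at a low level (1.501, 3.83 ± 0.746 against 1.34 ± 0.319 CPM). Of 9 IP3 receptor regulators 3 were higher: *Ahcyl1*, whose protein competes with IP3 for its receptor (0.61), *Selenok*, a cofactor in receptor palmitoylation (0.43), and *Tespa1*, a receptor-binding protein of thymocytes (0.30). From repeat 1 alone and repeat 2 alone, *Ahcyl1* was at 0.86 and 0.37, *Selenok* at 0.34 and 0.50, and *Tespa1* at 0.52 and 0.13. Of 9 other pumps, exchangers and release channels, the plasma membrane pump *Atp2b1* was higher (0.35), a call kept in 7 of the 22 alternatives, with -0.021 from repeat 1 alone and 0.60 from repeat 2 alone.

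Of 11 calcium-binding proteins of the ER lumen, 2 were higher, *Calr* (0.42, 454 ± 56.8 against 340.3 ± 24.2 CPM), the main calcium buffer of the ER, and the chaperone *Hsp90b1* (0.51, 359 ± 34.0 against 252 ± 19.1 CPM). Of 10 genes of mitochondrial calcium uptake, 3 were lower and 1 higher (40%, against 33.3% of the IP3 receptor regulators and 18% of all tested genes). The lower ones were *Micu2* (-0.53), which gates the mitochondrial uniporter, and the outer membrane channels *Vdac1* (-0.70, 75.4 ± 6.61 against 122 ± 13.8 CPM) and *Vdac3* (-0.38). The higher one was *Smdt1*, a uniporter subunit (0.47, 372 ± 8.53 against 269 ± 20.7 CPM). Of 6 channels that set the driving force for calcium entry, the potassium channel *Kcna3* was lower (-0.55). Of the 14 called genes, 6 stayed called without any mouse in turn, namely *Plcg1*, *Selenok*, *Calr*, *Hsp90b1*, *Smdt1* and *Vdac1*. The call was lost without each mouse for *Itpkc*, *Tespa1* and *Atp2b1*, without WT mouse 3 for *Saraf* (-0.35), HET mouse 1 for *Micu2* (-0.42) and WT mouse 1 for *Vdac3* (-0.34), and without several for *Ahcyl1* and *Kcna3*. With GC and length trends removed, the calls of *Kcna3* (-0.37, edgeR adjusted p = 0.118), *Tespa1* (0.21, edgeR adjusted p = 0.146) and *Atp2b1* (0.20, edgeR adjusted p = 0.309) were lost, and *Kcna3* was at -0.997 with repeat 1 alone and -0.20 with repeat 2 alone.

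**Figure D5:**
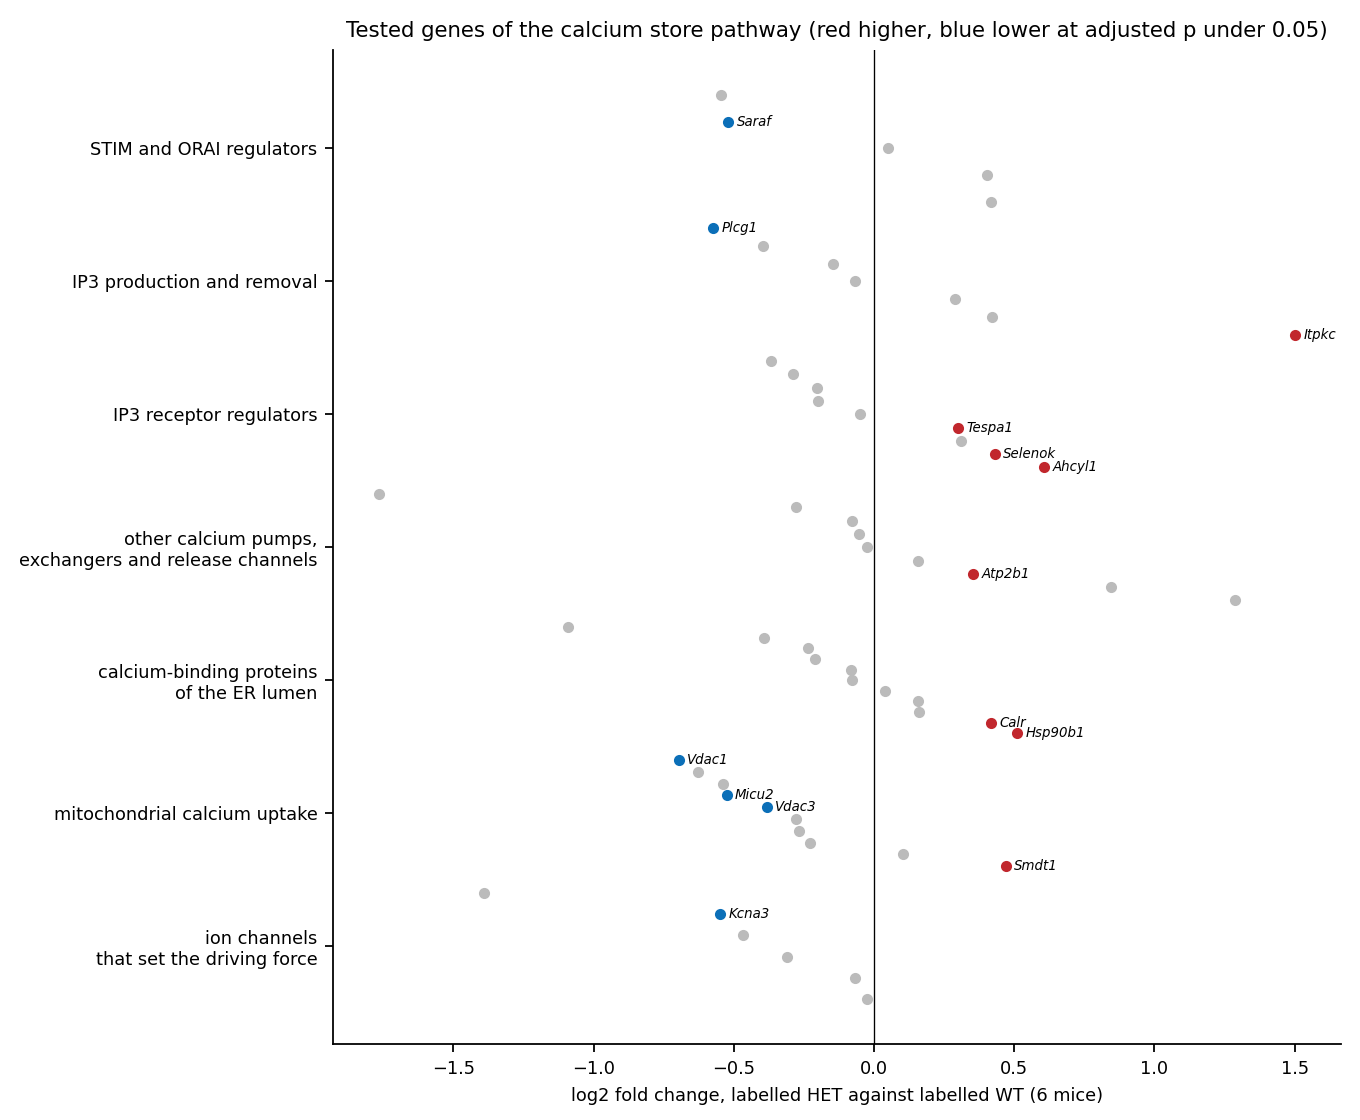
Log2 fold change (labelled HET against labelled WT, 6 mice) of the 57 tested pathway genes, 1 point per gene and grouped by list, red where higher and blue where lower at an adjusted p under 0.05. Of the 14 coloured points, 4 are among the 10 tested genes of mitochondrial calcium uptake, 3 of them lower.

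For the 4 called genes, the tested genes of most similar pattern were found by the root-mean-square difference in mean-centred log2 CPM over the 12 libraries, where 0 would be the same pattern. For *Stim1* they were *Lims1* (0.10), *Sh3glb2* (0.11) and *Sh2d2a* (0.11). For *Orai2* they were *Was* (0.11), *Gtpbp6* (0.15) and *Il21r* (0.15), and for *Itpr3* they were *Abhd17a* (0.12), *Ppp4r1* (0.19) and *Noc2l* (0.19). For *Atp2a3* they were *Laptm5* (0.16), *Sf3b4* (0.17) and *Sipa1l1* (0.17). Their own log2 fold changes followed the member they were matched to in sign, from -0.75 for *Was* and *Il21r* to 0.81 for *Noc2l*, which the choice by pattern fixes in part.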

How the data were processed

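RNA of about 200 sorted Tfh cells per library was amplified by SMART-Seq2 and sequenced. Per the labels, the authors aligned the reads to mm10 with HISAT2 2.2.1 and counted them per gene with HTSeq. The deposited counts are raw whole-number read counts of 24561 genes. The authors also deposited TPM values of 24530 genes, whose gene length is not given in the sources used here, nor is the annotation release or the strand setting. Totals were 3343375 to 8315722 counts per library, and no column was left unmapped.

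Counts of the 2 technical repeats were added up per mouse, and the genotypes were compared over 6 mice in edgeR 4.0.16 (R 4.3.3) with TMM scaling, filterByExpr, the quasi-likelihood test and Benjamini-Hochberg adjustment at 0.05. The genotype-by-repeat term was tested in the 12 libraries with the mouse as a block. Family shares were tested by two-sided exact permutation. Lengths and coordinates came from a GRCm38 annotation, which held 23822 symbols under their own name and 240 under another symbol, with 499 not found. Likeness used log2(CPM + 0.5). Scripts were tested on simulated data.

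The genes named are the 10 members, *Bcl6*, pathway genes with adjusted p under 0.05, and the 3 genes most like each called member. A gene of the pathway list is not reported here and was left out of its counts. The members and lists were chosen with earlier results of these data known. Alternatives were DESeq2 1.42.0, limma 3.58.1 (voom on the libraries with a random effect per mouse, or log2(TPM + 1) and log2(TPM + 0.1)), other scalings and filters, each repeat alone, a block for the replicate number, GC and length trends removed by mgcv 1.9-3, other lengths for the shares, and leaving out each mouse. Leaving out 2 libraries and the longest-transcript length were chosen after seeing the data.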

Additional observations from a re-analysis of the deposited data

Results flagged for a closer look

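Each gene's 6 libraries of a genotype were examined for a library far from the others by Dixon's criterion. Of the 20 groups examined 2 had such a library, where chance gives about 1. *Stim2* was at 40.4 CPM in repeat 2 of WT mouse 3, while the other libraries labelled WT were between 24.6 and 29.4 CPM (median 28.5). *Itpr3* was at 45.3 CPM in repeat 2 of HET mouse 3, while the other libraries labelled HET were between 28.0 and 34.3 CPM (median 32.0). Without both libraries, the log2 fold change of *Stim2* moved from -0.26 to -0.16 and that of *Itpr3* from 0.68 to 0.56.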

How the results depend on the processing

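The 4 called genes kept their direction under all 22 alternatives. Of the 10 members, 1 was called with repeat 1 alone and 1 without the 2 libraries standing apart. With TPM in place of counts, 1 was called at a pseudocount of 1, 2 at 0.1, and 0 at 1 with no filter on low values. Leaving out each mouse gave 2 to 3. All genes called, 2288 in the main comparison (1166 higher, 1122 lower), numbered 1059 with repeat 1, 1446 with repeat 2, 1305 (390 higher, 915 lower), 1260 (374 and 886) and 221 (78 and 143) with the TPM settings in that order, 1424 to 1972 without each mouse, the lowest without WT mouse 3, and 1388 without those libraries. TPM shifted the median log2 fold change over the genes tested, to -0.07 with the pseudocount of 1 and to -0.11 with that of 0.1, so the TPM counts and values given here include those shifts. Pathway genes called, 14 in the main comparison, numbered 8 with either repeat alone, 6, 6 and 0 with those TPM settings, and 8 to 11 without each mouse, the lowest without WT mouse 1. Of the family shares, 3 did not overlap with repeat 1 alone. The log2 fold change of *Orai1* turned to -0.008 with voom, -0.57 with repeat 1, -0.17, -0.19 and -0.17 with the TPM settings, -0.17 without the libraries standing apart, and ranged from -0.18 to 0.12 without each mouse. That of *Atp2b1* turned to -0.021 with repeat 1. The cause was not tested.

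The deviations of each mouse from the mean of its genotype were correlated between mice labelled HET and WT. Same-numbered mice gave 0.085, the highest value, -0.028 and 0.025, and the others gave -0.083 to 0.060. With the replicate block 4 members and 2579 genes were called, against 2288 genes without it. About 200 cells per library and 3 mice per genotype limit what could be detected, most for *Orai3*, with 17 to 72 counts per library.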

Other observations

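In the fit by voom, which takes the mouse as a random effect, the correlation between the 2 technical repeats of a mouse was 0.00843 as a consensus over the genes tested, where 0 would mean that repeats of the same mouse deviate from their genotype no more alike than libraries of different mice.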
